A study of Mus musculus with 6 samples.

Results

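The small leucine-rich proteoglycans are secreted matrix proteins built on a core of leucine-rich repeats. The 10 genes described here were Bgn, Dcn, Aspn, Fmod, Lum, Prelp, Omd, Epyc, Ogn and Chad, chosen by gene symbol from the 54532 genes of the count table. Their RNA was measured by RNA-seq in Gli1+ and Gli1- chondrogenic cells, with 3 libraries of each population. All cells came from C57BL/6 mice that carried Gli1-CreERT2 and the tdTomato reporter allele (Ai9), were 1 month old and were harvested 24 h after tamoxifen. Gli1+ cells were sorted as CD45- CD31- Ter119- tdTomato+ cells and Gli1- cells as CD45- CD31- Ter119- tdTomato- cells, so both populations shared the alleles, the drug and the gate, and they differed in whether Gli1-driven Cre had switched on tdTomato. The sample labels name the growth plate as the tissue, whereas the study describes the RNA-seq cells as digested from rib (costal) cartilage, and which of them applies was not tested.

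Most of these proteins carry glycosaminoglycan chains, of chondroitin or dermatan sulfate on class I members and of keratan sulfate on class II members. They bind collagen fibrils and limit how thick fibrils grow, and several of them hold growth factors such as TGF-beta in the matrix. In cartilage they lie around chondrocytes and on the fibrils between them, while some members are better known from tendon, perichondrium and bone.

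In brief, Chad, Omd, Fmod and Prelp were lower in Gli1+ than in Gli1- cells in each of the 3 pairs of libraries, and Epyc was the only member with a positive fitted change. Bgn, Dcn, Lum, Ogn and Aspn were higher in Gli1+ cells in some pairs and lower in others. By edgeR's quasi-likelihood test over all 14801 genes tested, with a gene called at a fold change over 2 and an adjusted p under 0.05, 0 of 10 members were called, and 0% of all genes tested were called. At an unadjusted p under 0.05 the same fit placed 2 of 10 members lower, Chad and Omd, against 2.04% of all genes tested. With the replicate number as a block, DESeq2 called 3 of 10 members lower, namely Chad, Omd and Fmod, against 2.11% of all genes tested, and edgeR with the same block called 0.

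Each library held between 17114101 and 18602482 counts, and all 10 members passed the filter on low counts. Gli1+ replicate 1 had a count for 15000 genes, whereas the other 5 libraries had one for 20666 to 23360. Gli1 itself, the gene that defined the sort, was at 4.55, 6.39 and 7.98 CPM (counts scaled to a common library size) in the Gli1+ libraries and at 0.724, 1.26 and 2.43 CPM in the Gli1- libraries, in the order of replicates 1 to 3. The groups did not overlap, in the direction that the labels give. Yet edgeR without a block did not call Gli1 either (log2 fold change 2.09, edgeR unadjusted p = 0.0152, adjusted p = 0.9999). DESeq2 with the block called it higher (adjusted p = 0.0189). Col2a1, the main fibril collagen of cartilage, was between 2130 and 13530 CPM in all 6 libraries. Leukocyte markers summed to 3570 CPM in Gli1- replicate 1 and to 17.0 to 85.6 CPM in the other 5 libraries. Gli1- replicate 2 stood highest for the summed chondrocyte markers, at 34950 CPM against 7702 to 26210 CPM elsewhere. In CPM it was also the highest library for all 10 members.

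The members lie at a few places in the mouse genome (GRCm38, which is mm10). Aspn (13:49544443-49567565), Omd (13:49582462-49592822) and Ogn (13:49608046-49624501) follow each other on the plus strand of chromosome 13, inside the span of Cenpp on the minus strand. Dcn (10:97479609-97518143), Lum (10:97565128-97572703) and Epyc (10:97644068-97682454) form a second plus-strand cluster on chromosome 10, with Kera, a family member known from the cornea, between Lum and Epyc. Prelp (1:133910304-133921414, minus strand) and Fmod (1:134037254-134048277, plus strand) lie on chromosome 1. Chad (11:94565047-94569127, plus strand) lies within the span of Acsf2 on the minus strand, and Bgn is on the X chromosome (X:73483602-73495933, plus strand). Acsf2 had 40 to 366 counts per library and shared no exonic base with Chad. The other opposite-strand genes held few counts: Cenpp had 2 to 42 per library and shared 7 exonic bases with Aspn, and Gm10754, which shared 1041 exonic bases with Epyc, had 0 to 10. Gm15851, which shared 350 exonic bases with Prelp, also had 0 to 10 counts per library. The strand setting of the counting is not given in the sources used here, so reads in these shared bases could not be assigned to a strand.

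RefSeq promoter sequences (GRCm38.p6) were found for 8 of the 10 members, and Dcn and Lum had no entry. The start of a promoter is the RefSeq start. For Ogn it was 13:49608015, not the 13:49608046 given above, and for the other promoters printed below it matched. The 200 bases before the start of Chad and Omd are shown because these members had the largest fitted decreases. Aspn and Ogn are added because they flank Omd and differed from it in sign in pair 1, but not in pairs 2 and 3. All are printed 5′ to 3′ on the gene's strand. Capitals mark a TATA box (TATAAA, gene's strand), an E-box (CANNTG, its own reverse complement) or a SOX core (ACAAT, both strands).
Chad (11:94564847-94565046, plus strand): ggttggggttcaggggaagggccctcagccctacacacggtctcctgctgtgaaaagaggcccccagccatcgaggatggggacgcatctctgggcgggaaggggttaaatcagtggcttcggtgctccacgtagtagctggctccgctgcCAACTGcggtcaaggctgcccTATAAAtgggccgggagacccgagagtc
Omd (13:49582262-49582461, plus strand): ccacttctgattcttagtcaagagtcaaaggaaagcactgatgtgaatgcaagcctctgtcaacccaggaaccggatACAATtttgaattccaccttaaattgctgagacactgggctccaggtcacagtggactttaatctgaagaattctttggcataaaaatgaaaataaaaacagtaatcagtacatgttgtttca
Aspn (13:49544243-49544442, plus strand): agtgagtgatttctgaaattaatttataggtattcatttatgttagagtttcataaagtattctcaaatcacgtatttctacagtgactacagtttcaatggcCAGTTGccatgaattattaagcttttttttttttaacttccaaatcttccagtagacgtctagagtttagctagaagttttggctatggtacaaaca
Ogn (13:49607815-49608014, plus strand): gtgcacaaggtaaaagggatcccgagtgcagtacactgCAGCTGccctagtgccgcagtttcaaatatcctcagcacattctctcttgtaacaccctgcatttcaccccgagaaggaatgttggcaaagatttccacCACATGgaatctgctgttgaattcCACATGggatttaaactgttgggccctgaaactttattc

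These 4 promoters differed in base composition over the 250 bases searched, from 30.0% G and C for Aspn and 38.4% for Omd to 42.0% for Ogn and 60.4% for Chad. The TATA box of Chad began 28 bases before the start. Other matches lay within the 250 bases searched but upstream of the printed bases, so no capitals mark them. Counted from the start, Aspn had a TATA box at -207 and a SOX core at -222, and Ogn had a TATA box at -227. A TATA box occurred in 7.59% of the 32851 RefSeq promoters over the same 250 bases, an E-box in 66.2% and a SOX core in 27.7%. The AP-1 letters TGANTCA and the GLI letters GACCACCCA, searched on both strands and found in 6.75% and 0.225% of all promoters, had no match in any member's entry. A match describes these letters and is not evidence of binding.

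Across the family the levels spanned a wide range. Levels per gene length were taken as TPM (counts divided by gene length and scaled to the same sum in each library). The gene length covers all annotated exonic bases, 1680 for Chad, 6099 for Bgn and 5838 for Dcn. The order below depends on these lengths, and which transcripts the cells used was not tested. On this scale Chad ranked first by mean in both populations. It was at 1890 TPM in Gli1+ cells (1039 to 3420) and 5419 TPM in Gli1- cells (3944 to 6303). Bgn followed at 1308 and 1423 TPM, Dcn at 1099 and 1199 TPM, Fmod at 371 and 789 TPM and Lum at 300 and 318 TPM in Gli1+ and Gli1- cells, respectively. In Gli1+ cells the TPM ranges of Chad, Bgn and Dcn overlapped, so their order there was not resolved. In Gli1- cells the TPM range of Chad lay above that of Bgn. Without division by length, Bgn gave 30% to 47% of the members' counts in Gli1+ cells, above Chad at 10% to 21%. In Gli1- cells these shares overlapped, at 24% to 34% for Bgn and 25% to 43% for Chad. The low end of the order differed between the populations. Epyc ranked seventh in Gli1+ cells, at 71.9 TPM, and last in Gli1- cells, at 29.7 TPM, while Omd ranked ninth in Gli1+ cells, at 43.0 TPM, and sixth in Gli1- cells, at 236 TPM. Most neighbours at this end overlapped in range. Aspn was at 51.0 and 63.2 TPM and Ogn at 24.6 and 39.1 TPM.

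**Figure D1:**
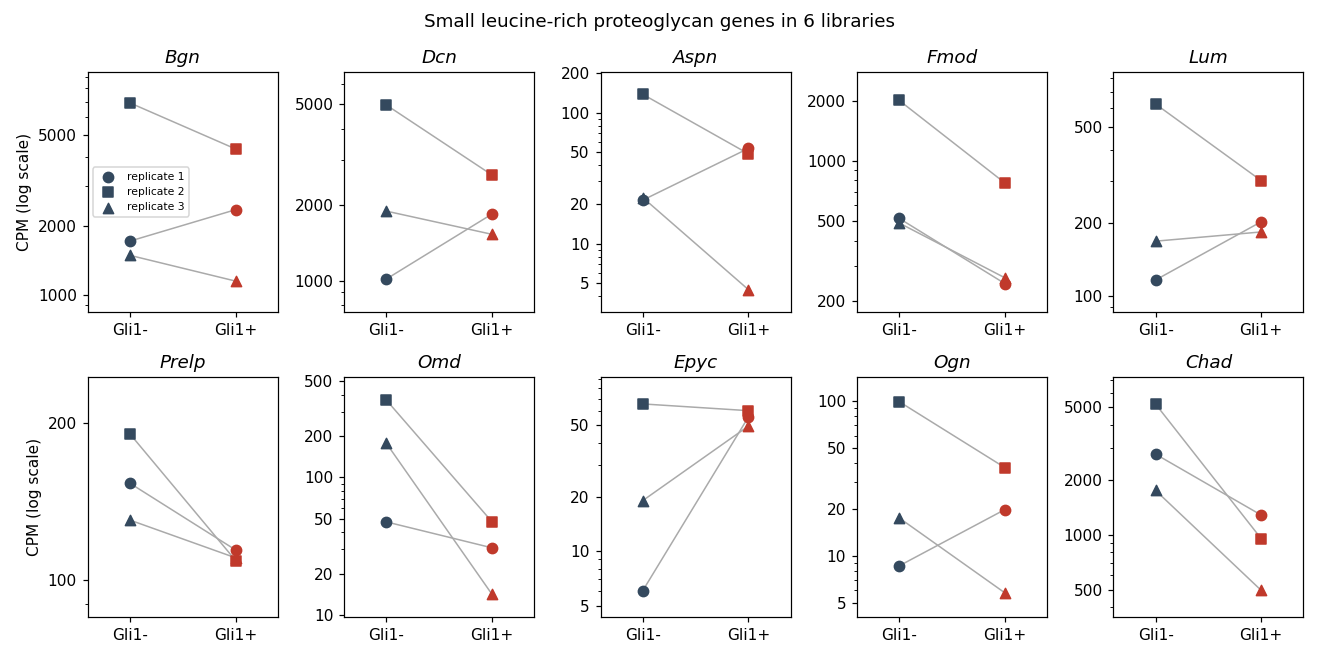
Level of each member in CPM (log axis, its own scale per gene) in the Gli1- (dark) and Gli1+ (red) libraries. Lines join libraries that share a replicate number. All 3 lines fall towards Gli1+ for Fmod, Prelp, Omd and Chad, and the 3 Gli1+ points of Epyc lie close together at 49.5 to 60.2 CPM.

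Class I holds Bgn and Dcn, the most abundant proteoglycans of this family in many connective tissues, and Aspn, which has an aspartate stretch in place of the chain attachment sites. Bgn, encoding biglycan, was at 2358, 4347 and 1148 CPM in Gli1+ replicates 1 to 3 and at 1718, 6915 and 1488 CPM in Gli1- replicates 1 to 3. Dcn, encoding decorin, which binds collagen and TGF-beta, was at 1838, 2623 and 1527 CPM in Gli1+ cells and at 1016, 4967 and 1887 CPM in Gli1- cells. For both genes the highest library was Gli1- replicate 2 and the groups overlapped. The fitted log2 fold change (Gli1+ over Gli1-) was -0.37 ± 0.79 (SE) for Bgn and -0.39 ± 0.67 for Dcn, with an adjusted p of 0.9999 by edgeR for each. Both differences turned positive, to 0.68 and 0.44, once Gli1- replicate 2 was left out.

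Aspn, encoding asporin, was at 53.5, 48.6 and 4.46 CPM in Gli1+ cells and at 21.6, 138 and 22.5 CPM in Gli1- cells. Gli1+ replicate 3 was the lowest of the 6 libraries and Gli1- replicate 2 the highest. Its log2 fold change was -0.78 ± 1.00 (SE; edgeR adjusted p = 0.9999), and 0.65 without Gli1- replicate 2. Within replicate numbers 1, 2 and 3 the log2 differences of Aspn were 1.31, -1.51 and -2.31, so its direction was opposite in pair 1.

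Class II holds Fmod, Lum, Prelp and Omd. Fmod and Lum, encoding fibromodulin and lumican, are close relatives that bind the same region of fibrillar collagen. Fmod was at 244, 776 and 261 CPM in Gli1+ cells and at 516, 2003 and 490 CPM in Gli1- cells. Each Gli1+ library was below the Gli1- library of its own number, by log2 differences of -1.08, -1.37 and -0.91, although the groups overlapped because both libraries of number 2 were high. On the TPM scale the groups did not overlap, at 278 to 502 TPM against 562 to 1235 TPM. The log2 fold change of Fmod was -1.23 ± 0.75 (SE) without a block (edgeR adjusted p = 0.9999), and it ran from -2.01 without Gli1+ replicate 2 to -0.26 without Gli1- replicate 2. With the block it was -1.13 ± 0.30 by DESeq2, which called it lower at an adjusted p of 0.00903, and -1.12 ± 0.26 by edgeR, which did not call it at an adjusted p of 0.381.

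Lum was at 203, 300 and 184 CPM in Gli1+ cells and at 116, 623 and 168 CPM in Gli1- cells. Gli1- replicates 1 and 3 lay below all 3 Gli1+ libraries and Gli1- replicate 2 above them. Its fitted log2 fold change was -0.40 ± 0.66 (SE; edgeR adjusted p = 0.9999), and 0.66 without Gli1- replicate 2. Lum had the profile most like that of Dcn over the 6 libraries, with a root mean square distance of 0.16 log2 units between their centred levels, the smallest of all pairs of members.

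Prelp, encoding a heparin-binding member known from cartilage and basement membranes, varied least. It was at 114, 109 and 110 CPM in Gli1+ cells, with a mean of 111 ± 2.74 (SD, n = 3), and at 153, 191 and 130 CPM in Gli1- cells, with a mean of 158 ± 30.4 (SD, n = 3). Every Gli1+ library was below every Gli1- library in CPM, and the exact permutation test on log2 CPM gave p = 0.1, two-sided, the smallest value that 3 against 3 libraries allow. On the TPM scale the groups overlapped, at 64.5 to 142 TPM against 108 to 155 TPM. A log2 fold change of -0.51 ± 0.36 (SE; edgeR adjusted p = 0.9999) was fitted, under the 2-fold threshold.

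Omd, encoding osteomodulin, a keratan sulfate proteoglycan known from bone, had the largest fitted decrease of the family. It was at 30.8, 47.6 and 14.1 CPM in Gli1+ cells and at 47.5, 365 and 177 CPM in Gli1- cells. The groups met at Gli1+ replicate 2 and Gli1- replicate 1, which were nearly equal in CPM, and did not overlap in TPM, at 22.2 to 61.5 against 77.3 to 331. The log2 differences within numbers 1, 2 and 3 were -0.62, -2.94 and -3.64. The log2 fold change was -2.67 ± 0.78 (SE; edgeR unadjusted p = 0.00901, adjusted p = 0.9999), and it stayed between -3.15 and -1.88 with each library left out. Called lower by DESeq2 with the block at -2.46 ± 0.57 (adjusted p = 0.00149), it was not called by edgeR with the block (adjusted p = 0.440). When genes with low counts were kept in the table, edgeR called it as well (adjusted p = 0.000726). In that fit 247 of 28536 genes tested were called lower, and the fitted change of Omd was nearly the same, at -2.685.

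**Figure D2:**
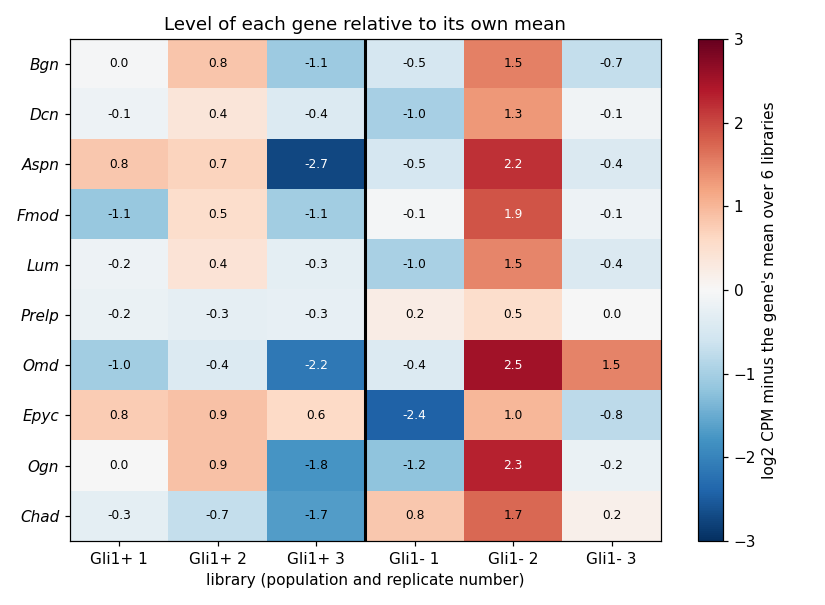
Log2 CPM of each member (rows) minus the gene's own mean over the 6 libraries (columns), red for above and blue for below. Gli1- replicate 2 is above the mean for all 10 members. Omd, Chad and, by less, Prelp are below it in all 3 Gli1+ libraries, and Epyc is above it in all 3.

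Class III is represented by Epyc and Ogn. Epyc, encoding epiphycan, a dermatan sulfate proteoglycan of the growth cartilage, was at 55.6, 60.2 and 49.5 CPM in Gli1+ cells and at 6.05, 65.6 and 19.1 CPM in Gli1- cells. The 3 Gli1+ libraries were alike, with a mean of 55.1 ± 5.37 CPM (SD, n = 3), while the Gli1- libraries spread widely around a mean of 30.2 ± 31.3 CPM (SD, n = 3). Its log2 fold change was 0.87 ± 0.75 (SE; edgeR adjusted p = 0.9999) and ranged from 0.37 to 2.11 with each library left out, the highest without Gli1- replicate 2. Within numbers 1, 2 and 3 the log2 differences were 3.18, -0.12 and 1.37, so pair 2 had the opposite sign. With the block the fitted change was 1.46 ± 0.68 (SE) by edgeR, not called (adjusted p = 0.637). With the block and both libraries of number 2 left out, DESeq2 called Epyc higher, at 2.27 (adjusted p = 0.0408), against 0.204% of all genes called higher in that fit, and called no other member.

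Ogn, encoding osteoglycin, also named mimecan, was at 20.0, 37.3 and 5.78 CPM in Gli1+ cells and at 8.64, 99.4 and 17.6 CPM in Gli1- cells. Its groups overlapped, and the direction in pair 1 (log2 difference 1.20) was opposite to that in pairs 2 and 3 (-1.41 and -1.59). The log2 fold change was -1.0 ± 0.97 (SE; edgeR adjusted p = 0.9999), and 0.66 without Gli1- replicate 2. Aspn and Ogn, which flank Omd, thus had the opposite sign in pair 1, whereas Omd did not. In pairs 2 and 3 all of these neighbours were lower in Gli1+ cells.

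Chad, encoding chondroadherin, belongs to the non-canonical class IV and binds chondrocytes through an integrin. It was at 1280, 950 and 495 CPM in Gli1+ cells, with a mean of 908 ± 394 (SD, n = 3), and at 2761, 5193 and 1747 CPM in Gli1- cells, with a mean of 3234 ± 1771 (SD, n = 3). All Gli1+ libraries were below all Gli1- libraries, in CPM and in TPM, and in CPM scaled by library totals alone. The exact permutation test gave p = 0.1, two-sided, the smallest this design allows. The log2 fold change was -1.83 ± 0.63 (SE; edgeR unadjusted p = 0.0198, adjusted p = 0.9999) with a range of -2.18 to -1.35 over the fits that omit 1 library. With the block it was -1.81 ± 0.37 by DESeq2, which called it lower (adjusted p = 0.000217), and -1.79 ± 0.35 by edgeR, which did not (adjusted p = 0.350).

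**Figure D3:**
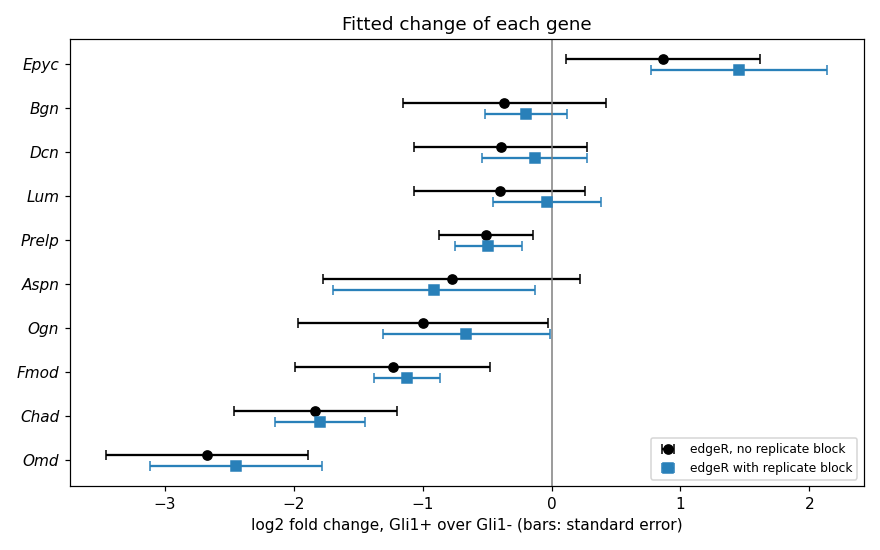
Fitted log2 fold change of each member, Gli1+ over Gli1-, with its standard error, from edgeR without (black) and with (blue) the replicate number as a block. Omd, Chad and Fmod have the lowest values in both fits, and the block narrows the error of Fmod from 0.75 to 0.26.

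Counted over the family, 9 of 10 members had a negative and 1 a positive fitted change, with a median log2 fold change of -0.64, beside a median of 0.0013 over all 14801 genes tested. In all 3 pairs, 4 members were lower (Chad, Fmod, Omd and Prelp), against 19.8% of all genes tested, and 0 were higher, against 17.6%. Chad and Prelp, 2 of 10, were lower with no overlap between the groups in CPM, against 4.45% of all genes tested, and 0 of 10 were higher without overlap, against 4.04%. The median over the members turned to 0.55 without Gli1- replicate 2, the library in which all members were above their mean. With both libraries of number 2 left out, which removes its high Gli1+ partner too, the median was 0.016 by edgeR and -0.28 by DESeq2 with the block. Without both libraries of number 2 (chosen after seeing the data), 4 members were lower with no overlap, against 18.7% of all genes tested, and without Gli1+ replicate 1, the library with a count for the fewest genes, 2 were, against 6.90%.

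The calls that the block gave also rested on few libraries. Without both libraries of number 1, the pair whose Gli1- library held leukocyte RNA, DESeq2 with the block called 5 of 10 members lower, against 3.27% of all genes in that fit: Omd at -3.30, Chad at -2.15, Aspn at -1.90, Ogn at -1.52 and Fmod at -1.15. Without number 3 it called 0 of 10, against 0.421% of all genes called lower, with Chad at -1.77 (adjusted p = 0.0988), Omd at -1.77 (adjusted p = 0.228) and Fmod at -1.21 (adjusted p = 0.355). Without number 2, Chad was at -1.48 (adjusted p = 0.133), Omd at -2.15 (adjusted p = 0.0987) and Fmod at -1.01 (adjusted p = 0.528). The fitted values of these 3 genes kept their sign in each of these fits.

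**Figure D4:**
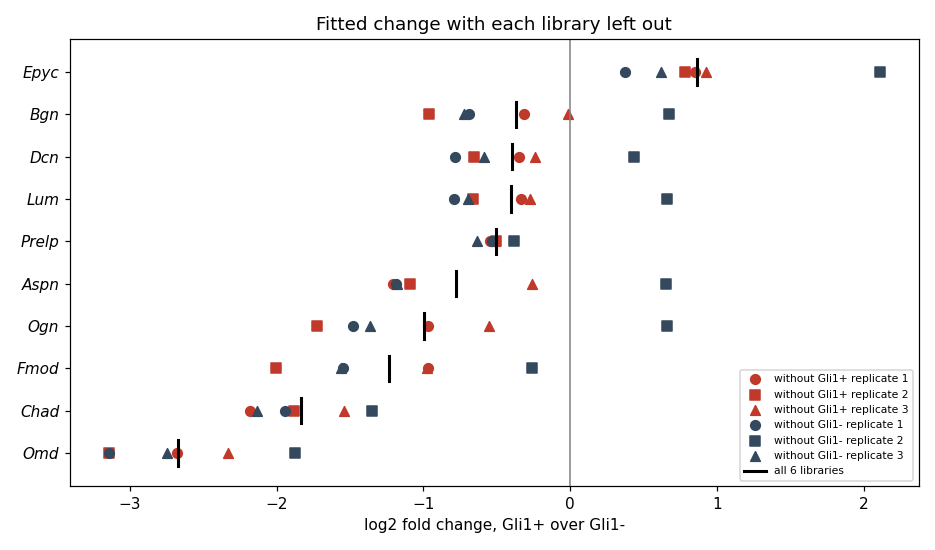
Fitted log2 fold change of each member by edgeR with all 6 libraries (black bar) and with each library left out (symbols, by population and replicate number). Leaving out Gli1- replicate 2 moves Bgn, Dcn, Lum, Aspn and Ogn above 0, while Chad and Omd stay below -1 in all 6 fits.

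As a share of the library, the 10 members together took 0.645%, 0.831% and 0.400% of all counts in Gli1+ replicates 1 to 3 and 0.716%, 1.67% and 0.679% in Gli1- replicates 1 to 3. The Gli1+ library was below its Gli1- counterpart in each pair, but the groups overlapped (mean log2 difference -0.64, exact permutation p = 0.4, two-sided). Leaving out Gli1- replicate 2 changed this difference to -0.22, and leaving out Gli1+ replicate 3 changed it to -0.35. In bulk libraries, fewer cells that express a gene and less RNA per cell cannot be told apart. Within that share the make-up differed: Chad gave 10.2% to 20.7% of the members' counts in Gli1+ cells and 25.3% to 43.4% in Gli1- cells, whereas Dcn gave 28.2% to 40.2% and 16.0% to 30.7%, and Epyc 0.647% to 1.30% and 0.0951% to 0.319%. The shares of 4 members did not overlap between the populations: Chad and Omd took a smaller part in Gli1+ cells, and Epyc and Lum a larger one. Shares within a library add up to a whole, so a smaller part of Chad leaves a larger part for the others. In CPM, the groups of Omd, Epyc and Lum overlapped and those of Chad did not. A count of this kind was not made over all genes. Omd gave 0.372% to 0.512% in Gli1+ and 0.747% to 2.88% in Gli1- cells, and Lum 3.23% to 4.84% and 1.83% to 3.03%. Those of the other 6 members overlapped.

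Ratios within a library do not depend on the scaling between libraries. The Fmod to Lum ratio was 1.20, 2.59 and 1.42 in Gli1+ replicates 1 to 3 and 4.44, 3.22 and 2.91 in Gli1- replicates 1 to 3, with no overlap. On the log2 scale it was 0.71 ± 0.58 (SD, n = 3) against 1.79 ± 0.32 (SD, n = 3), a difference of -1.08 (exact permutation p = 0.1, two-sided, the smallest possible), and the difference stayed between -1.41 and -0.85 with each library left out. By contrast, the Bgn to Dcn ratio was 1.28, 1.66 and 0.752 in Gli1+ cells and 1.69, 1.39 and 0.789 in Gli1- cells. The log2 difference was -0.07 (exact permutation p = 0.7, two-sided). The Chad to Ogn ratio, at 25.5 to 85.7 in Gli1+ cells and 52.2 to 320 in Gli1- cells, was lower in Gli1+ cells in all 3 pairs, with overlapping groups (log2 difference -1.19, exact permutation p = 0.4, two-sided). That difference ran from -1.78 without Gli1- replicate 2 to -0.47 without Gli1- replicate 1.

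**Figure D5:**
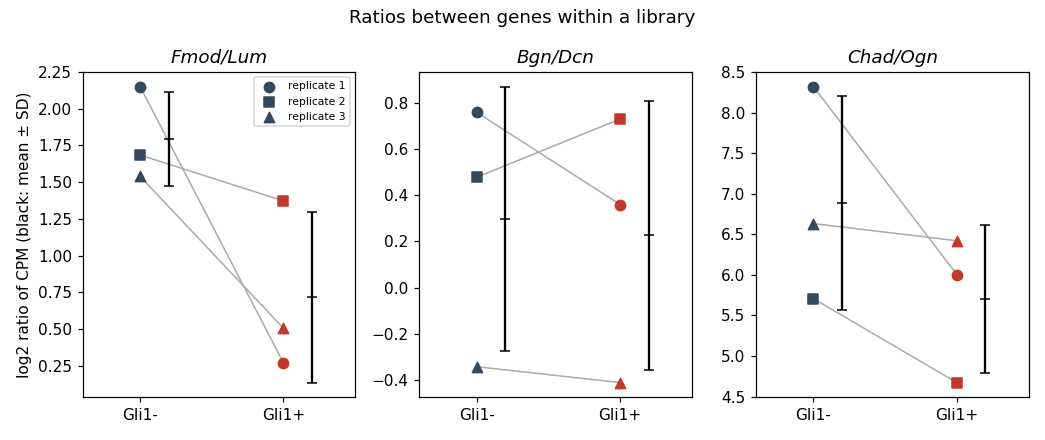
Log2 ratio of CPM between members in each library, with replicate numbers joined by lines and the mean ± SD of 3 libraries in black. The Fmod to Lum ratios of the populations do not overlap, while those of Bgn to Dcn and of Chad to Ogn do.

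The genes around the family were read from lists. Of 9 further family genes, 7 were tested and the median log2 fold change was 0.15. Podnl1, a class V member, was higher in Gli1+ cells, at 5.13, 2.64 and 3.57 CPM against 1.03, 0.464 and 0.635 CPM, with no overlap (log2 fold change 2.40 ± 0.73, edgeR unadjusted p = 0.0108, adjusted p = 0.9999; called by DESeq2 with the block, adjusted p = 0.0433). Kera was at 1.32, 7.31 and 0.263 CPM in Gli1+ cells and 4.34, 47.0 and 1.01 CPM in Gli1- cells, lower in every pair, was not called by edgeR, and was called lower by DESeq2 with the block (adjusted p = 0.00371). Ecm2, which lies next to Aspn, was at 20.4 to 59.7 CPM against 51.9 to 203 CPM and was not called in either fit.

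Of each list of enzymes that build the chains, DESeq2 with the block called 1 gene higher, against 0.777% of all genes tested, and 0 lower. Of the 21 chondroitin and dermatan sulfate enzymes tested, 0 passed an unadjusted p of 0.05 by edgeR, and the median log2 fold change was 0.08. Chsy3, a chondroitin polymerase, was the only one called by DESeq2 with the block, higher at 1.04 (adjusted p = 0.0240). Of the 8 keratan sulfate enzymes tested, 1 was higher without overlap, against 4.04% of all genes tested. It was the sulfotransferase Chst2, at 22.5, 18.0 and 23.5 CPM against 11.4, 6.17 and 4.97 CPM (edgeR unadjusted p = 0.0147, adjusted p = 0.9999), and DESeq2 with the block called it (adjusted p = 0.0215). The median of this list was 0.02.

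Of the 10 proteases that process or cleave these proteins, 3 were higher at an unadjusted p under 0.05 by edgeR, against 1.43% of all genes tested, and 0 were lower. DESeq2 with the block called 2 of them higher, against 0.777% of all genes. Mmp13, a collagenase that also cleaves fibromodulin, was at 5328, 2861 and 4859 CPM in Gli1+ cells and at 457, 592 and 607 CPM in Gli1- cells, a log2 fold change of 2.98 ± 0.54 (edgeR unadjusted p = 0.000527, adjusted p = 0.9999; DESeq2 with the block, adjusted p = 6.61e-12). Mmp3, stromelysin, was at 5218, 7947 and 16270 CPM against 2398, 2545 and 4374 CPM, also without overlap (DESeq2 with the block, adjusted p = 0.000214). Htra1, a serine protease, was at 242 to 543 CPM against 176 to 514 CPM and was not called.

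Among 14 tested receptors and bound ligands the median log2 fold change was -0.71, and 8 were lower in all 3 pairs, against 19.8% of all genes. Bmp2, a growth factor bound by several family members, was at 68.8, 92.5 and 97.2 CPM in Gli1+ cells and at 223, 161 and 257 CPM in Gli1- cells, with no overlap, and was called lower by DESeq2 with the block (-1.31, adjusted p = 0.00806) but not by edgeR. Without overlap, 5 of these genes were lower, against 4.45% of all genes tested, and 1 was higher, against 4.04%. The higher one was Tgfb2, at 318 to 565 CPM against 159 to 290 CPM, and it was not called.

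The collagens whose fibrils carry these proteoglycans moved in both directions, with a median log2 fold change of -0.17 over 18 genes, and DESeq2 with the block called 2 higher, against 0.777% of all genes, and 2 lower, against 2.11%. Col5a3 was called higher at 330, 482 and 2337 CPM against 156, 119 and 394 CPM (adjusted p = 0.000214). Col6a3 was called higher as well (1.34, adjusted p = 0.00727). Col5a2, at 80.4, 96.4 and 50.5 CPM against 170, 269 and 102 CPM, and Col3a1 were called lower (adjusted p = 0.00736 and 0.00608). Col2a1 differed by a log2 fold change of -0.03 ± 0.91 (SE) by edgeR.

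Markers of other cells moved with some members. Of 11 tested fibroblast and perichondrium markers, 8 were lower in Gli1+ cells in all 3 pairs, against 19.8% of all genes tested. Their sum was 127 to 1342 CPM in Gli1+ and 565 to 4796 CPM in Gli1- libraries, lowest in Gli1+ replicate 3 and highest in Gli1- replicate 2. Chad, Omd, Bgn, Aspn and Ogn were also lowest and highest in these libraries. The other members were highest in Gli1- replicate 2 too. Dcn, Lum and Epyc were lowest in Gli1- replicate 1, Fmod in Gli1+ replicate 1 and Prelp in Gli1+ replicate 2. How many of all genes share these extremes was not counted. All 4 tendon markers were lower in every pair, against the same 19.8%, with sums of 25.7 to 250 CPM against 97.7 to 1150 CPM. The 3 superficial zone markers summed to 148 to 203 CPM in Gli1+ and 358 to 448 CPM in Gli1- libraries, without overlap, and DESeq2 with the block called Prg4 (adjusted p = 0.00369) and Cilp (adjusted p = 0.0303) lower. Markers of osteoblasts summed to at most 11.9 CPM, with 1 of 6 tested, beside the levels of Omd, a gene known from bone. The marker tested, Sp7, was higher in Gli1+ cells without overlap, unlike Omd, and was not called. It was at 5.08, 8.72 and 9.56 CPM against 0.672, 3.78 and 3.28 CPM. Bglap2 and Dmp1, which did not pass the filter on low counts, were lower in all 3 pairs. Erythroid, endothelial and skeletal muscle markers summed to at most 19.1, 18.4 and 39.1 CPM in any library. The 7 hypertrophic chondrocyte markers, of which Mmp13 is a part, summed to 6570 to 8331 CPM in Gli1+ and 2242 to 9558 CPM in Gli1- libraries. Of them, 3 had a positive and 4 a negative fitted change. In all 3 pairs 2 were higher, against 17.6% of all genes tested, and 2 were lower, against 19.8%. Without overlap 2 were higher, against 4.04%, and 0 were lower, against 4.45%. Other genes of that list went the opposite way to Mmp13: Col10a1, the collagen of hypertrophic cartilage, was at 34.6, 285 and 72.0 CPM in Gli1+ cells and at 161, 1781 and 210 CPM in Gli1- cells and was called lower by DESeq2 with the block (adjusted p = 6.28e-07). Spp1, encoding osteopontin, was lower in all 3 pairs and not called. Of the 12 chondrocyte markers, 9 had a negative fitted change and 3 a positive one, with a median log2 fold change of -0.28. DESeq2 with the block called 2 of them lower, against 2.11% of all genes: Comp, a matrix protein that binds collagen, at -1.41 (adjusted p = 0.000367), and Matn1, a matrilin, at -3.35 (adjusted p = 0.0279). The 10 dissociation stress genes summed to 2005 to 16200 CPM in Gli1+ and 11270 to 33310 CPM in Gli1- libraries, and 7 were lower in all 3 pairs, against 19.8% of all genes. The part of these cell types and of the stress genes in the members' differences was not tested.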

How the data were processed

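Poly-A RNA of 6 sorted cell libraries was sequenced. Per the submitters' processing notes, reads were aligned to mm10 with HISAT2 2.0.5 and counted per gene with featureCounts 1.5.0-p3. The deposited values are whole-number counts per gene, made by the authors without normalization. CPM (scaled by TMM), TPM (counts per gene length, scaled to the library), shares and ratios were computed from them here. The main test was edgeR 4.0.16 (quasi-likelihood, filterByExpr with a minimum count of 10, TMM, Benjamini-Hochberg adjustment over 14801 genes), with calls at an absolute log2 fold change over 1 and an adjusted p under 0.05. DESeq2 1.42.0 and limma 3.58.1 (voom), other scalings, filters, a replicate block and left-out libraries were alternatives. R was 4.3.3.

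Depth was nearly equal between libraries, and members had 85 to 104278 counts each. The study compared both populations from the same mice, without saying that a replicate number marks a mouse. Same-numbered libraries were treated as pairs because their deviations from the group means correlated at 0.223, 0.720 and 0.471 over the genes tested, each over 0.1, although Gli1+ replicate 1 correlated slightly more with Gli1- replicate 3 (0.274). Gli1+ replicate 3 and Gli1- replicate 1 were over 0.1 as well (0.107). The threshold alone thus did not tell the numbering of pairs 1 and 3 from the crossed one. Libraries are labelled as replicates, and p-values measure the spread between them.

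The members and lists were chosen with earlier results of these data known. Named genes were all members, Gli1, genes next to or overlapping a member, the 3 most abundant genes of each list and those passing a calling rule; of these, a part is printed. The planned comparison of protein sequences was not run.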

Additional observations from a re-analysis of the deposited data

How the results depend on the processing

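All counts of members called, and all member values, were recomputed under 22 alternatives set out in the plan and under 3 added after the data were seen (DESeq2 with a replicate block and both libraries of 1 number left out). Prelp, Fmod, Chad, Omd, Epyc and Ogn kept their sign in all of these, except that Ogn was at 0.66 without Gli1- replicate 2. That library also turned Bgn to 0.68, Dcn to 0.44, Lum to 0.66 and Aspn to 0.65, and moved the median of the members from -0.64 to 0.55; over all left-out libraries the median ran from -1.03 to 0.55, Bgn from -0.96 to 0.68, Dcn from -0.79 to 0.44, Lum from -0.79 to 0.66, Ogn from -1.72 to 0.66 and Aspn from -1.21 to 0.65. With both libraries of number 2 left out, edgeR gave 0.090 for Bgn, 0.19 for Dcn, 0.41 for Lum and 0.35 for Aspn, and DESeq2 with the block gave 0.026 for Bgn, 0.26 for Dcn and 0.45 for Lum. The cause was not tested.

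Genes and members called, 0 and 0 in the report's test, came to 498 and 2 at an unadjusted p under 0.05 with a fold change over 2, 30 and 0 with DESeq2, 267 and 1 with no filter on low counts, and 428 and 3 with DESeq2 and the replicate block. DESeq2 with the block called 781 and 5 without number 1, 174 and 1 without number 2, and 71 and 0 without number 3. Under the other scalings, a minimum count of 50, limma-voom, and edgeR or limma-voom with the block, 0 genes were called. At an unadjusted p under 0.05, edgeR gave 514 genes. The replicate block changed no other call of a member. As a mean within replicate numbers (the replicate block), the summed level differed by -0.64, and the ratios by -1.08 (Fmod to Lum), -0.07 (Bgn to Dcn) and -1.19 (Chad to Ogn). A member that was not called is not shown to be equal between the populations.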

Other observations

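Genes outside the family were ranked by the distance of their centred log2 CPM over the 6 libraries from the median profile of the members. The ranking covered 8441 genes with a mean over 10 CPM. The median profile is not that of any single member. How close the nearest of so many genes comes to other profiles was not tested. The nearest was Oxct1, a ketone body enzyme, at a root mean square distance of 0.07 log2 units, followed by Zfp385b (0.15), Gas2l3 (0.20), Pamr1 (0.23) and Kiz (0.24). Oxct1 was at 23.7, 35.6 and 12.9 CPM in Gli1+ replicates 1 to 3 and at 20.1, 77.9 and 22.3 CPM in Gli1- replicates 1 to 3. The median profile itself was 1.62 log2 units above the mean in Gli1- replicate 2 and 1.07 below it in Gli1+ replicate 3, with the other 4 libraries between -0.50 and 0.46. Among members, the profiles farthest apart were those of Epyc and Omd, at 1.99 log2 units.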
